A study of Mus musculus with 8 samples.

Results

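The 32 genes described here encode enzymes that make cholesterol and fatty acids, the proteins that control them and 1 intracellular carrier of cholesterol. They were picked by gene symbol out of the 24421 genes of a mouse RNA-seq count table. All 32 reached 0.5 CPM (counts per 1000000 read pairs on genes, with library sizes scaled by TMM) in at least 2 libraries, as did 12424 genes of the table. 21 of them are known mainly as targets of the transcription factor SREBP2 and are called sterol genes. 9 are known mainly as targets of SREBP1 or of the liver X receptor (LXR) and are called fatty acid genes, while Scap and Insig2 stand in neither list.

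The study asked how the retinoic acid receptor RARα and its ligand retinoic acid (RA) act on Langerhans cell (LC) development. Bone marrow (BM) cells of C57BL6 mice were cultured with GM-CSF (20 ng/ml) and TGFβ1 (10 ng/ml), conditions that yield LC-like cells, and CD11c+ cells were taken with magnetic beads for sequencing of poly(A) RNA. There were 2 libraries of Rara KO cells, set against 2 of WT cells (WT 1 and WT 2), and 2 libraries of WT cells given all-trans RA, set against 2 of WT cells without it (Control 1 and Control 2). In the study the receptor gene was deleted by Cre under the CD11c promoter, so only cells that had switched on the transgene lost it, and its WT mice could be C57BL/6, floxed or Cre carriers. The labels give the RA dose as 1 nM and the culture as 3 to 5 days in medium with 10% serum, regular or charcoal-treated. The study's text gives a higher dose, the shortest of these times and the charcoal-treated kind. The study calls the samples of each group independent, but no source says whether they came from separate mice or cultures, and a p-value here weighs a difference against the spread between libraries alone.

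Cells make cholesterol from acetyl-CoA through mevalonate, squalene and lanosterol, and draw on the same acetyl-CoA for fatty acids. SREBP2 and SREBP1 are made as membrane proteins of the endoplasmic reticulum, where SCAP binds them. When sterols are low, SCAP carries them to the Golgi, where proteases free the part that enters the nucleus and turns on the synthesis genes. When sterols are high, the INSIG proteins hold SCAP back. LXR, which is bound by oxidised sterols and works as a dimer with RXR, raises Srebf1 and several fatty acid genes, and RXR is also the partner of RARα.

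Between 26325627 and 76077813 read pairs per library fell on genes. The LC gene Cd207 (langerin) had 0.541 and 0.259 CPM in Rara KO 1 and 2, against 18.5 and 19.8 CPM in WT 1 and 2. It had 0.0401 and 0.0377 CPM in RA 1 and 2, against 70.6 and 97.7 CPM in Control 1 and 2. The CD11c gene Itgax, which the sort selects for, had 504 to 575 CPM in the RA libraries and 788 CPM or more in every other library. Rara itself had 62.1 and 93.2 CPM in Rara KO 1 and 2, against 104 and 127 CPM in WT 1 and 2 (log2 fold change −0.57 ± 0.18 SE, adjusted p = 0.0521, edgeR). Its counts cover exons outside the deleted one, so they do not check the label. The share of counted bases in 3′ untranslated sequence, which can rise when RNA is degraded, was 46.5% to 48.5% in Rara KO libraries and 35.8% to 39.0% in WT 1 and 2. It was 32.04% to 34.01% with RA and 30.8% to 32.1% in Control.

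Of the 32 genes, 10 fell and 2 rose in Rara KO cells against WT 1 and 2 at an adjusted p under 0.05 (edgeR's quasi-likelihood test with Benjamini-Hochberg adjustment over all genes tested, as in every test below). Of all 12424 genes, 13.3% were called lower and 13.6% higher in this comparison, so the members, at 31.2% lower and 6.25% higher, leaned towards lower calls. With RA, 9 rose and 3 fell against Control. Here 15.2% of all genes were called higher and 19.3% lower, and the members, at 28.1% higher and 9.38% lower, leaned towards higher calls. Sc5d rose in both comparisons, and Srebf2, Scap and Fads1 fell in both. None was called in opposite directions, and 12 were called in neither. Calls shared by the 2 comparisons were not counted over all genes, so whether this overlap is unusual cannot be told. Of the 32, 9 lay wholly above their controls in Rara KO and 15 wholly below, and with RA 15 and 6. Over all 12424 genes the counts were 4048 and 4100 in Rara KO, and 4578 and 4734 with RA. Most genes thus did not overlap their controls, so a lack of overlap alone says little. The 2 comparisons have no library in common. Since RNA came from whole CD11c+ populations, fewer cells of a type and less RNA per cell cannot be told apart.

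**Figure D1:**
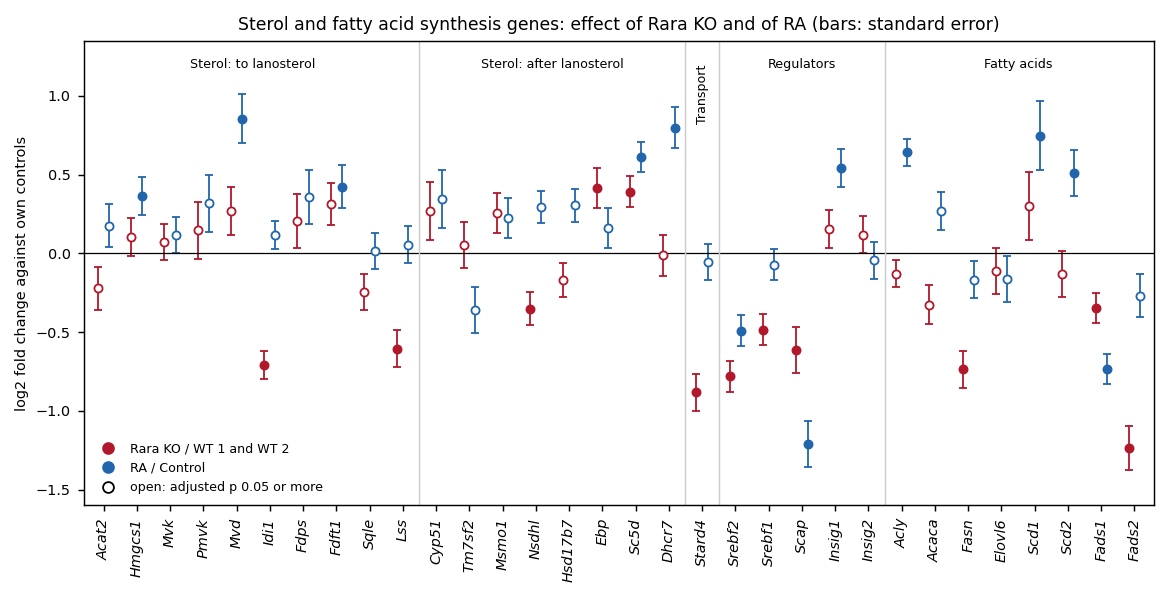
Log2 fold change of each of the 32 genes (y axis, bars of 1 standard error) in Rara KO cells against WT 1 and 2 (red) and with RA against Control (blue), ordered along the pathways on the x axis. Filled points passed the test: Fads2 at −1.24 is the lowest point of Rara KO and Scap at −1.21 the lowest with RA, and 6 sterol genes have filled blue points above 0.

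Of the 5 regulators, 3 fell in Rara KO (60%, against 13.3% of all genes). With RA, 1 rose (20%, against 15.2%) and 2 fell (40%, against 19.3%). Srebf2, which encodes SREBP2, had 199 and 201 CPM in Rara KO 1 and 2, against 321 and 366 CPM in WT 1 and 2. It had 235 and 254 CPM in RA 1 and 2, against 348 and 337 CPM in Control 1 and 2. In both comparisons the lower pair lay wholly below its controls, with little spread within a pair. The log2 fold change was −0.78 ± 0.10 (SE, n = 2 libraries each; edgeR adjusted p = 0.00248) in Rara KO and −0.49 ± 0.10 (edgeR adjusted p = 0.00627) with RA. Both calls held under all 12 other settings tried and with each of the 8 libraries left out. With trends on coding length, untranslated length and GC content removed from each library, a setting added after seeing the data, the falls were smaller, at log2 −0.37 (edgeR adjusted p = 0.0162) in Rara KO and −0.25 (edgeR adjusted p = 0.0299) with RA.

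Scap, the escort that both SREBPs need, had 50.1 and 46.7 CPM in Rara KO 1 and 2, against 67.4 and 80.5 CPM in WT 1 and 2. With RA it had 40.4 and 52.5 CPM, against 102 and 112 CPM in Control, and again neither pair overlapped its controls. It fell with RA to 0.433 times the Control level (log2 −1.21 ± 0.15, edgeR adjusted p = 0.00058), the lowest ratio of the 32 in that comparison, under every setting and with each library left out. The fall in Rara KO was to 0.654 times the WT level (log2 −0.61 ± 0.15, edgeR adjusted p = 0.0197). This call was lost on leaving out Rara KO 2 (log2 −0.61, edgeR adjusted p = 0.0517) or WT 2 (log2 −0.48, edgeR adjusted p = 0.119).

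Srebf1, which encodes SREBP1, had 122 and 117 CPM in Rara KO 1 and 2, against 159 and 176 CPM in WT 1 and 2. It had 176 and 182 CPM in RA 1 and 2, against 200 and 177 CPM in Control 1 and 2, where the pairs overlap. It fell in Rara KO by 0.48 on the log2 scale (SE 0.10, edgeR adjusted p = 0.0117) and did not pass the test with RA (log2 −0.07 ± 0.10, edgeR adjusted p = 0.6). The Rara KO call was lost without WT 2 (log2 −0.41) and with the length trend removed (log2 −0.33, edgeR adjusted p = 0.0553). The difference between its effects was 0.41 ± 0.14 on the log2 scale and did not pass the test either (edgeR adjusted p = 0.126).

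Insig1, itself a target of the SREBPs, had 148 and 134 CPM in RA 1 and 2, against 99.5 and 94.6 CPM in Control 1 and 2. It rose by 0.54 ± 0.12 on the log2 scale (edgeR adjusted p = 0.0108), a call lost without RA 1 (log2 0.47, edgeR adjusted p = 0.0654) or Control 2 (log2 0.50, edgeR adjusted p = 0.0823) and with the 4 WT libraries pooled as controls (log2 0.24, edgeR adjusted p = 0.4). In Rara KO 1 and 2 it had 172 and 144 CPM, against 153 and 131 CPM in WT 1 and 2, and these pairs overlap. Insig2, the isoform that the SREBPs do not drive, stayed between 21.3 and 31.7 CPM over all 8 libraries and was called in neither comparison. Mbtps1, the Golgi protease that makes the first cut in the SREBPs, is no member but belongs to the list of other lipid genes described further on. It fell in Rara KO by 0.45 ± 0.10 on the log2 scale (edgeR adjusted p = 0.0162) and missed the test with RA (log2 −0.27 ± 0.10, edgeR adjusted p = 0.0674).

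**Figure D2:**
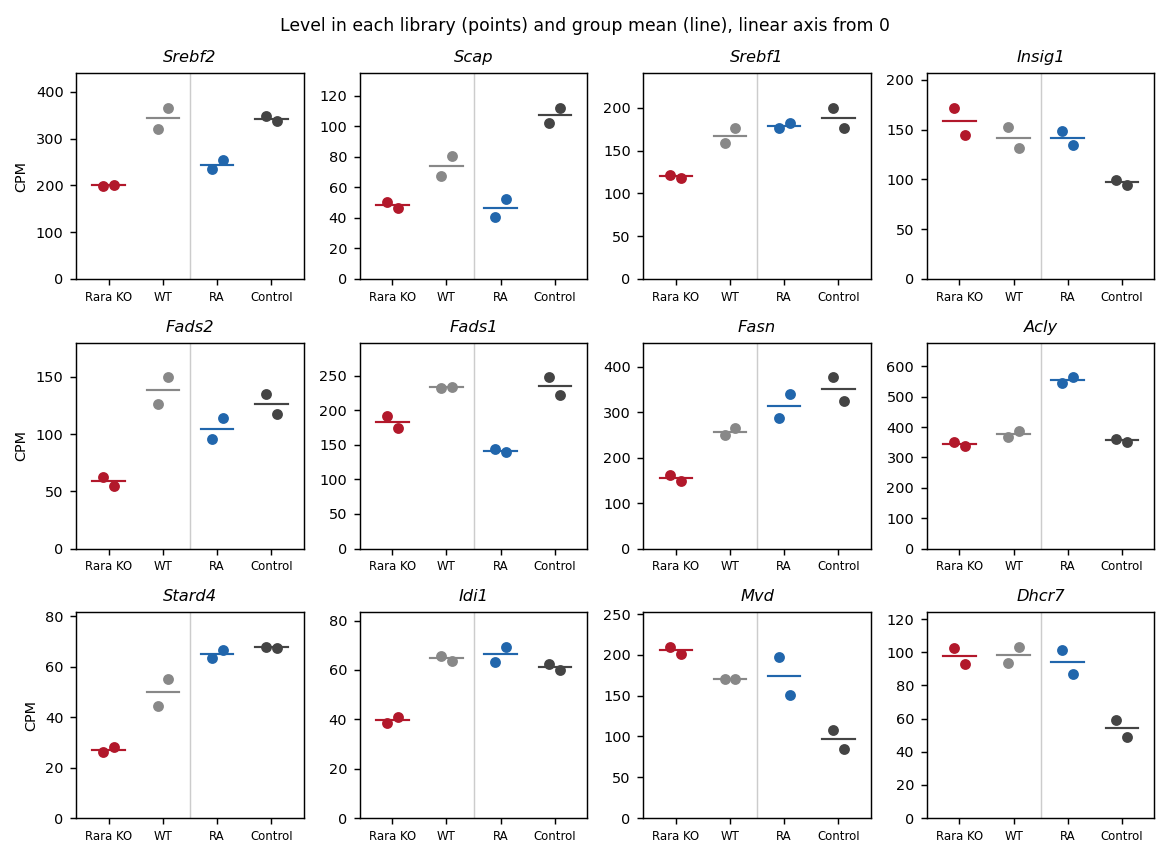
CPM in each library (points, linear y axis starting at 0) and group mean (line) of 12 members, for Rara KO, WT (WT 1 and 2), RA and Control. Srebf2, Scap and Fads1 are lower in both Rara KO and RA than in their controls, Fads2, Fasn, Stard4 and Idi1 are lowest in Rara KO, and Mvd, Dhcr7 and Insig1 are lowest in Control.

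Of the 21 sterol genes, 7 passed the test in each comparison. In Rara KO, 2 rose (9.52%, against 13.6% of all genes) and 5 fell (23.8%, against 13.3%). The median log2 fold change of the 21 was 0.08, against 0.0028 over all genes. With RA, 6 rose (28.6%, against 15.2% of all genes) and 1, Srebf2, fell (4.76%, against 19.3%). Of the 21, 18 had a positive fold change with RA, and the median of the 21 was 0.29, against −0.0066 over all genes. Their CPM summed to 3605 to 4050 in Rara KO libraries and 3646 to 3782 in WT 1 and 2, which overlap. The sums were 2562 to 2893 in RA libraries and 2163 to 2469 in Control libraries, which do not. Pooling all 4 WT libraries as controls left Srebf2 alone called with RA and turned most of these directions, so that 7 of the 21 had a positive fold change and 14 a negative one. Control and WT 1 and 2 differ in these genes, as shown further on.

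Of the 10 enzymes that lead to lanosterol, 2 fell in Rara KO (20%, against 13.3% of all genes) and none rose (against 13.6%). At an unadjusted p under 0.05, 1 of the 10 rose in edgeR. Idi1, which isomerises isopentenyl diphosphate into the other building block of the pathway, had 38.4 and 40.9 CPM in Rara KO 1 and 2, against 65.7 and 63.8 CPM in WT 1 and 2. It fell by 0.71 ± 0.09 on the log2 scale (edgeR adjusted p = 0.00266), and the call held under every setting and without any 1 library. Its RA libraries, at 63.3 and 69.5 CPM, lay just above the Control libraries, at 62.5 and 60.1 CPM, a difference that did not pass the test (log2 0.11 ± 0.09, edgeR adjusted p = 0.352).

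Lss, which closes the ring of lanosterol, had 60.8 and 55.5 CPM in Rara KO 1 and 2, against 87.4 and 89.4 CPM in WT 1 and 2. It fell by 0.60 ± 0.12 on the log2 scale (edgeR adjusted p = 0.00984). The call was lost without WT 2 (log2 −0.59) and with the length trend removed (log2 −0.40, edgeR adjusted p = 0.0672). With RA it had 78.7 and 68.9 CPM, against 77.4 and 64.6 CPM in Control, and the pairs overlap.

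With RA, 3 of these 10 enzymes rose (30%, against 15.2% of all genes) and none fell (against 19.3%). All 10 had a positive fold change. With the 4 WT libraries pooled as controls none was called and 8 of the 10 fold changes were negative, all but those of Mvd and Idi1. Against Control, none of the 10 fell at an unadjusted p under 0.05 in edgeR. Mvd, the mevalonate diphosphate decarboxylase, had 198 and 151 CPM in RA 1 and 2, against 108 and 85.0 CPM in Control 1 and 2. It rose to 1.81 times the Control level (log2 0.86 ± 0.15, edgeR adjusted p = 0.00388), the highest ratio of the 32 with RA, and only pooling the 4 WT libraries ended the call (log2 0.39). In Rara KO it had 210 and 201 CPM, against 170 and 170 CPM in WT, a gap that did not pass the test (log2 0.27 ± 0.15, edgeR adjusted p = 0.213).

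Fdft1, squalene synthase, had 126 and 101 CPM in RA 1 and 2, against 92.9 and 76.2 CPM in Control 1 and 2. It rose by 0.42 ± 0.13 on the log2 scale (edgeR adjusted p = 0.0418). The call stood only without RA 2 or Control 1. On leaving out each of the other 6 libraries in turn, Rara KO 1, Rara KO 2, WT 1, WT 2, RA 1 or Control 2, the log2 fold change was 0.25 to 0.43 with an edgeR adjusted p of 0.0534 to 0.263. Hmgcs1, which makes HMG-CoA, rose by 0.36 ± 0.12 (edgeR adjusted p = 0.0482). It lost the call on leaving out WT 1, WT 2, RA 1, Control 1 or Control 2 (log2 0.25 to 0.46, edgeR adjusted p 0.0662 to 0.28). It also lost it with total counts, the filter of the study's methods, the compared libraries alone and either trend correction (log2 0.31 to 0.38, edgeR adjusted p 0.0514 to 0.0963). With the 4 WT libraries pooled both genes turned, to log2 −0.12 for Fdft1 and −0.18 for Hmgcs1 (edgeR adjusted p = 0.8 and 0.701). The other 5, Acat2, Mvk, Pmvk, Fdps and Sqle, were called in neither comparison, with log2 fold changes of −0.25 to 0.21 in Rara KO and 0.01 to 0.36 with RA.

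The 8 enzymes from lanosterol to cholesterol included the only 2 members that rose in Rara KO (25%, against 13.6% of all genes). There 1 of the 8 fell (12.5%, against 13.3%). With RA, 2 of the 8 rose (25%, against 15.2%) and none fell (against 19.3%). Sc5d, which introduces a double bond into the sterol ring, had 180 and 167 CPM in Rara KO 1 and 2, against 134 and 131 CPM in WT 1 and 2. With RA it had 123 and 110 CPM, against 79.6 and 73.1 CPM in Control, so that both pairs lay above their controls. It rose by 0.61 ± 0.10 on the log2 scale with RA (edgeR adjusted p = 0.00229) and kept that call under all settings but the pooling of the 4 WT libraries (log2 0.16). In Rara KO it rose by 0.39 ± 0.10 (edgeR adjusted p = 0.022), a call lost without Rara KO 1, WT 1 or WT 2 (log2 0.28 to 0.38, edgeR adjusted p 0.0947 to 0.151) and with total-count scaling (log2 0.25, edgeR adjusted p = 0.108). It was also lost with the compared libraries alone (log2 0.38, edgeR adjusted p = 0.0537) and with the WT libraries pooled (log2 0.73, edgeR adjusted p = 0.0501).

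Dhcr7, which carries out the last reduction to cholesterol, had 102 and 86.7 CPM in RA 1 and 2, against 59.3 and 49.0 CPM in Control 1 and 2. It rose to 1.74 times the Control level (log2 0.80 ± 0.13, edgeR adjusted p = 0.00261), and only the pooled WT controls ended the call (log2 0.30). In Rara KO it had 103 and 92.7 CPM, against 93.5 and 103 CPM in WT, pairs that overlap almost wholly. The effects of RA and of Rara KO on Dhcr7 differed by 0.81 ± 0.18 on the log2 scale (edgeR adjusted p = 0.043). Of the fits that left out 1 library, only the one without RA 2 kept the call on that difference. Without any 1 of the other libraries, Rara KO 1, Rara KO 2, WT 1, WT 2, RA 1, Control 1 or Control 2, it was 0.68 to 0.95 with an edgeR adjusted p of 0.056 to 0.14. It was also lost with the length trend removed (0.73, edgeR adjusted p = 0.0665). With the 4 WT libraries pooled, which sets RA against Rara KO libraries directly, the value was −0.05 (edgeR adjusted p = 0.913).

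Nsdhl and Ebp, which act on the sterol ring at steps before those of Sc5d and Dhcr7, lie on the X chromosome. Nsdhl had 73.9 and 77.5 CPM in Rara KO 1 and 2, against 93.4 and 99.9 CPM in WT 1 and 2 (log2 −0.35 ± 0.10, edgeR adjusted p = 0.04). Ebp had 139 and 121 CPM in Rara KO 1 and 2, against 107 and 87.5 CPM in WT 1 and 2 (log2 0.41 ± 0.13, edgeR adjusted p = 0.0439). The 2 X-linked genes thus moved in opposite directions, each without overlap, as was common among all genes. The Nsdhl call was lost without Rara KO 1, Rara KO 2, WT 2, Control 1 or Control 2 (log2 −0.43 to −0.30, edgeR adjusted p 0.0589 to 0.178). The fall of Nsdhl was nearly gone with the 4 WT libraries pooled (log2 −0.04, edgeR adjusted p = 0.902), while that setting kept the Ebp call (log2 0.66, edgeR adjusted p = 0.0337). The Ebp call was lost with total counts (log2 0.27, edgeR adjusted p = 0.17) and with the length trend removed (log2 0.27, edgeR adjusted p = 0.151). It was also lost with the compared libraries alone (log2 0.40, edgeR adjusted p = 0.0993). Of the fits that left out 1 library, it held only without WT 1. The log2 fold change was 0.26 to 0.47 without Rara KO 1, Rara KO 2, WT 2, RA 1, RA 2, Control 1 or Control 2. Xist, expressed from the inactive X of females, had at most 1.08 CPM in the Rara KO, RA and Control libraries, against 91.1 and 253 CPM in WT 1 and 2, so sex and Rara deletion cannot be told apart here. Cyp51, Tm7sf2, Msmo1 and Hsd17b7 were called in neither comparison. Their log2 fold changes were −0.17 to 0.27 in Rara KO and −0.36 to 0.35 with RA. With the length trend removed, RA calls appeared for Tm7sf2 (log2 −0.46, edgeR adjusted p = 0.0334) and Hsd17b7 (log2 0.38, edgeR adjusted p = 0.0208). With coding length, untranslated length and GC trends removed, Tm7sf2 was called (log2 −0.42, edgeR adjusted p = 0.0453) and Hsd17b7 was not (log2 0.19, edgeR adjusted p = 0.198).

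Promoters of the sterol genes are shown because SREBPs bind the sterol regulatory element and work there with NF-Y, which binds CCAAT boxes. RefSeq promoter windows of build GRCm38.p6, 250 bases before to 50 after a transcript start, matched 25 of the 32 members, with 33 windows. Fdps, Fdft1, Sqle, Stard4, Scd1, Scd2 and Fads1 were not matched. The 200 bases before a start are given 5′ to 3′ on the strand of the gene, with matches to the motifs in capitals: chr13:119690151-119690350 (plus strand) for Hmgcs1, chr5:28071212-28071411 (plus strand) for Insig1, chr9:42264301-42264500 (minus strand) for Sc5d, chr7:143830014-143830213 (plus strand) for Dhcr7, chr15:82147069-82147268 (plus strand) for Srebf2 and chr11:120824548-120824747 (minus strand) for Fasn.
Hmgcs1: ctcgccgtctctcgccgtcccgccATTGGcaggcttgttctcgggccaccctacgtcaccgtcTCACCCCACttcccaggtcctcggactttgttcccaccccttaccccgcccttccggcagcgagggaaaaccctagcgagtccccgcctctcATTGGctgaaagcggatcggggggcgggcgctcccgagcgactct
Insig1: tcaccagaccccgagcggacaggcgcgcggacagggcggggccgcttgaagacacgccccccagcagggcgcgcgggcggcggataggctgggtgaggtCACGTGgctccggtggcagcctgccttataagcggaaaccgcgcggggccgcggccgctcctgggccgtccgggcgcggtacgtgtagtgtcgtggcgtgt
Sc5d: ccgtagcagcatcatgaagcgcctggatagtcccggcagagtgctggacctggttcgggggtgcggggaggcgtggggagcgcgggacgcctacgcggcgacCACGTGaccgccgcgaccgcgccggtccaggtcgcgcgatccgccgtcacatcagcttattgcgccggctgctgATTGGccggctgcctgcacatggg
Dhcr7: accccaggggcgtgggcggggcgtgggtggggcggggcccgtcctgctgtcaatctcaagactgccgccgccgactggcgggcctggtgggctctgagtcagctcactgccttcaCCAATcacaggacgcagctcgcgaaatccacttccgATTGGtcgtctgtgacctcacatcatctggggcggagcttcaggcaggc
Srebf2: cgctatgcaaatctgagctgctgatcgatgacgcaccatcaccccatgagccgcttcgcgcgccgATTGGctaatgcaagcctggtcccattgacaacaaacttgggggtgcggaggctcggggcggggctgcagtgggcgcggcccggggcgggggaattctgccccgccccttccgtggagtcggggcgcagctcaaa
Fasn: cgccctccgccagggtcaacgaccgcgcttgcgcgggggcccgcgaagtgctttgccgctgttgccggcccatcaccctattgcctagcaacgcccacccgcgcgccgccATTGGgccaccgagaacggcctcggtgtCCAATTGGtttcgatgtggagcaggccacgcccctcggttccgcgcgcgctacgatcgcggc
Of these 6, Hmgcs1, Insig1, Sc5d and Dhcr7 rose with RA, Srebf2 fell in both comparisons and Fasn fell in Rara KO. The motifs, searched on both strands, were CCAAT, the E-box CACGTG, the sterol regulatory element TCACNCCAC and the LXR element, AGGTCA repeated after a gap of 4 bases, and matches of different motifs did not overlap in the sequences shown, while a pair of CCAAT matches overlaps in Fasn. CCAAT was in 16 of the 20 sterol gene windows (80%) and 4 of the 8 fatty acid gene windows (50%), against 37.4% of all 32851 windows and 37.6% of the 12106 windows of genes tested. CACGTG was in 4 of the 20 sterol gene windows, those of Hsd17b7, Sc5d, Dhcr7 and Insig1, and in none of the fatty acid gene windows, against 7.15% of all windows and 9.96% of those of genes tested. The match of Dhcr7 is in a window of another start than the one shown. TCACNCCAC, held by 1.24% of all windows, was found in Hmgcs1 alone, with its first base at −137, and the LXR repeat, held by 0.0152% of all windows, in no member. A match is a description of letters, not a bound site.

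Stard4, which moves cholesterol between membranes, fell in Rara KO to 0.542 times the WT level. It had 26.0 and 28.2 CPM in Rara KO 1 and 2, against 44.6 and 55.3 CPM in WT 1 and 2 (log2 −0.88 ± 0.12, edgeR adjusted p = 0.00291), with a clear gap between the pairs. The call held under every setting and without any 1 library. With RA it had 63.7 and 66.8 CPM, against 68.0 and 67.6 CPM in Control, and did not pass the test (log2 −0.06 ± 0.11, edgeR adjusted p = 0.734).

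The 9 fatty acid genes fell more often than they rose in Rara KO and went both ways with RA. In Rara KO, 4 fell (44.4%, against 13.3% of all genes) and none rose (against 13.6%). DESeq2 gave the same counts, and none rose at an unadjusted p under 0.05 in edgeR. Their median log2 fold change was −0.33. With RA, 3 rose (33.3%, against 15.2% of all genes) and 1 fell (11.1%, against 19.3%), with a median of −0.07. Scd2 had by far the highest CPM of the 9, and without it the sums were 1161 to 1275 in Rara KO libraries and 1449 to 1533 in WT 1 and 2. They were 1575 to 1619 in RA libraries and 1392 to 1572 in Control libraries.

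Acly, which splits citrate to give the acetyl-CoA that both pathways use, stood out with RA. It had 546 and 565 CPM in RA 1 and 2, against 361 and 351 CPM in Control 1 and 2. It rose to 1.56 times the Control level (log2 0.64 ± 0.08, edgeR adjusted p = 0.000911) under every setting and without any 1 library. In Rara KO it had 352 and 338 CPM, against 367 and 386 CPM in WT, a small gap that did not pass the test (log2 −0.13 ± 0.08, edgeR adjusted p = 0.289). The 2 effects differed by 0.77 ± 0.12 on the log2 scale (edgeR adjusted p = 0.013), a call lost without WT 2, Control 1 or Control 2 (0.73 to 0.79, edgeR adjusted p 0.0533 to 0.0659).

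Fasn, the synthase that builds palmitate, had 161 and 148 CPM in Rara KO 1 and 2, against 250 and 264 CPM in WT 1 and 2. It fell to 0.600 times the WT level (log2 −0.74 ± 0.12, edgeR adjusted p = 0.00529), with each library left out and under all settings but 1. With trends on coding length, untranslated length and GC content removed, the log2 fold change was −0.21 and not called. Under the same setting the Rara KO calls of Lss (log2 −0.27), Srebf1 (−0.18), Scap (−0.38), Fads1 (−0.19) and Ebp (0.23) were lost as well, and those of Fads2, Stard4, Idi1, Srebf2, Nsdhl and Sc5d were kept. With the length trend alone removed, Fasn kept its call (log2 −0.48, edgeR adjusted p = 0.0307), while Lss, Srebf1, Fads1 and Ebp lost theirs. Fasn is a long transcript, and the Rara KO libraries had the higher 3′ share given above. A link between the 3′ share and these changes was not tested. With RA, Fasn had 287 and 340 CPM, against 377 and 326 CPM in Control, and the pairs overlap.

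Acaca, acetyl-CoA carboxylase, had 39.9 and 37.7 CPM in Rara KO 1 and 2, against 54.1 and 43.2 CPM in WT 1 and 2. It had 90.4 and 96.2 CPM in RA 1 and 2, against 81.1 and 73.6 CPM in Control 1 and 2. Neither pair overlapped its controls, but neither difference passed the test (log2 −0.33 ± 0.12 and 0.27 ± 0.12, edgeR adjusted p = 0.0855 and 0.12). The rise with RA was called with the length trend removed (log2 0.51, edgeR adjusted p = 0.0223). It was also called with coding length, untranslated length and GC trends removed (log2 0.62, edgeR adjusted p = 0.0158). Under these 2 settings the Rara KO values were −0.09 and 0.09 and not called. Elovl6, which lengthens palmitate, had 35.1 to 52.4 CPM over the 8 libraries and was called in neither.

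Of the 4 desaturases, the pair that leads to long polyunsaturated fatty acids had 3 calls, all lower, for Fads2 in Rara KO and for Fads1 in both comparisons. Fads2 had 62.7 and 54.8 CPM in Rara KO 1 and 2, against 127 and 150 CPM in WT 1 and 2. This was the lowest ratio of the 32 in Rara KO, 0.424 times the WT level (log2 −1.24 ± 0.14, edgeR adjusted p = 0.00198), and the call held under every setting and without any 1 library. With RA, Fads2 had 96.0 and 114 CPM, against 135 and 118 CPM in Control, a gap that did not pass the test (log2 −0.27 ± 0.14, edgeR adjusted p = 0.157).

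Fads1 had 144 and 139 CPM in RA 1 and 2, against 248 and 222 CPM in Control 1 and 2. It fell with RA to 0.602 times the Control level (log2 −0.73 ± 0.10, edgeR adjusted p = 0.000846) under every setting and without any 1 library. In Rara KO it had 192 and 174 CPM, against 233 and 233 CPM in WT (log2 −0.35 ± 0.10, edgeR adjusted p = 0.0302). There the call was lost without Rara KO 2, WT 1 or WT 2 (log2 −0.40 to −0.33). It was also lost with the compared libraries alone (log2 −0.36, edgeR adjusted p = 0.0644) and with the length trend removed (log2 −0.23, edgeR adjusted p = 0.133). Elovl5, the elongase that works between these desaturases and is no member, fell in both, by 0.62 ± 0.11 in Rara KO (edgeR adjusted p = 0.00631) and by 0.85 ± 0.11 with RA (edgeR adjusted p = 0.000695) on the log2 scale.

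The stearoyl-CoA desaturases Scd1 and Scd2, which make monounsaturated fatty acids, rose with RA. Scd1 had 197 and 135 CPM in RA 1 and 2, against 117 and 80.3 CPM in Control 1 and 2 (log2 0.75 ± 0.22, edgeR adjusted p = 0.0314). Scd2 had 1630 and 1443 CPM in RA 1 and 2, against 1199 and 958 CPM in Control 1 and 2 (log2 0.51 ± 0.15, edgeR adjusted p = 0.028). The RA libraries lay above both Control libraries for each gene, although Scd1 varied widely within a pair. Both calls were lost without RA 1 (log2 0.45 for Scd1 and 0.42 for Scd2) or Control 2 (log2 0.50 and 0.35), at edgeR adjusted p values of 0.137 to 0.199. Against the 4 pooled WT libraries the log2 fold changes were 0.03 for Scd1 and 0.21 for Scd2 (edgeR adjusted p = 0.969 and 0.519). In Rara KO, Scd1 had 302 and 257 CPM, against 215 and 239 CPM in WT, and Scd2 had 1598 and 1298 CPM, against 1590 and 1578 CPM in WT. Neither passed the test (edgeR adjusted p = 0.332 and 0.532).

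The difference between the effects of RA and of Rara KO was tested gene by gene. It was positive and called for 6 of the 32: Idi1 (0.82 ± 0.13), Nsdhl (0.65 ± 0.15), Dhcr7 (0.81 ± 0.18), Stard4 (0.83 ± 0.16), Acly (0.77 ± 0.12) and Fads2 (0.97 ± 0.19), all on the log2 scale. Of all genes, 1.86% were called higher and 4.23% lower in this test. No sterol or fatty acid gene was called lower with each effect taken against its own controls, by edgeR or by DESeq2, and at an unadjusted p under 0.05 in edgeR no sterol gene and 1 fatty acid gene was lower. Leaving out Control 1 or Control 2 lost all 6 calls, while the 6 values then ran from 0.57 to 1.07. With the 4 WT libraries pooled as controls of both effects, the controls cancel. The value is then the RA libraries against the Rara KO libraries directly. It holds any difference between the 2 sets of libraries, so it cannot check the difference of effects. These values were positive and called for Idi1, Stard4, Acly and Fads2 (0.69 to 1.27). For Nsdhl and Dhcr7 they were −0.06 and −0.05 and not called (edgeR adjusted p = 0.885 and 0.913). In that fit 2 sterol genes, Tm7sf2 (−1.32, edgeR adjusted p = 0.0285) and Ebp (−0.80, edgeR adjusted p = 0.0363), and 1 fatty acid gene, Fads1 (−0.37, edgeR adjusted p = 0.0409), were called lower. For Srebf2, Scap and Fads1, which fell in both comparisons, the differences were 0.29 ± 0.14, −0.60 ± 0.21 and −0.38 ± 0.13 and did not pass the test (edgeR adjusted p = 0.247, 0.127 and 0.134).

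Untreated WT cells of the 2 comparisons differed in more of the sterol genes than Rara KO or RA cells did from their own controls. In Control 1 and 2 against WT 1 and 2, 17 of the 21 sterol genes were lower, 81% against 9.94% of all genes, and 1, Stard4, was higher, where 11.7% of all genes were. The median log2 fold change of the 21 was −0.71, against 0.0038 over all genes. All 8 enzymes from lanosterol to cholesterol were lower. Hmgcs1 had 261 and 228 CPM in Control 1 and 2, against 474 and 464 CPM in WT 1 and 2 (log2 −0.94 ± 0.12, edgeR adjusted p = 0.00605). Fdps had 245 and 180 CPM in Control, against 442 and 409 CPM in WT 1 and 2 (log2 −1.003 ± 0.17, edgeR adjusted p = 0.0104). Neither pair overlapped. Of all 12424 genes, 4369 lay wholly above and 4187 wholly below WT 1 and 2 in Control. The RA libraries of Hmgcs1 lay in the gap between Control and WT.

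Of the 5 regulators, Insig1 was lower, Scap was higher and the other 3 were not called. Srebf2 averaged 343 CPM in Control and 344 CPM in WT 1 and 2 (log2 −0.0037 ± 0.10, edgeR adjusted p = 0.982), and Srebf1 did not pass the test (log2 0.17 ± 0.10, edgeR adjusted p = 0.249). The Scap difference (log2 0.54 ± 0.14, edgeR adjusted p = 0.0347) lost its call without WT 1, WT 2, Control 1 or Control 2 (log2 0.40 to 0.67) and with the length or the coding length, untranslated length and GC trends removed (log2 0.37 to 0.39). The Insig1 difference (log2 −0.55 ± 0.12, edgeR adjusted p = 0.0201) lost it without WT 1, Control 1 or Control 2 (log2 −0.58 to −0.45) and without the coding length, untranslated length and GC trends (log2 −0.45). Of the 9 fatty acid genes, Acaca (log2 0.67) and Fasn (log2 0.45) were higher and Scd1 (log2 −1.20) and Scd2 (log2 −0.55) lower in Control, none of them past the test without Control 2. The calls of Acaca and Fasn were also lost with the length trend removed (log2 0.32 and 0.09, edgeR adjusted p = 0.172 and 0.659) and with coding length, untranslated length and GC trends removed (log2 0.09 and −0.05, edgeR adjusted p = 0.736 and 0.839). Without Control 1, Acaca, Fasn and Scd2 did not pass, without WT 1, Fasn and Scd2, and without WT 2, Fasn, Scd1 and Scd2. The 17 sterol genes were all still lower without any 1 library, but without Control 2 none passed (log2 −1.09 to −0.46, edgeR adjusted p 0.052 to 0.183). Without Control 1, 12 sterol genes passed and without WT 1, 9. The labels give all 4 libraries as untreated WT, and sex, by the Xist values above, serum and the sequencing of the 2 pairs cannot be told apart.

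**Figure D3:**
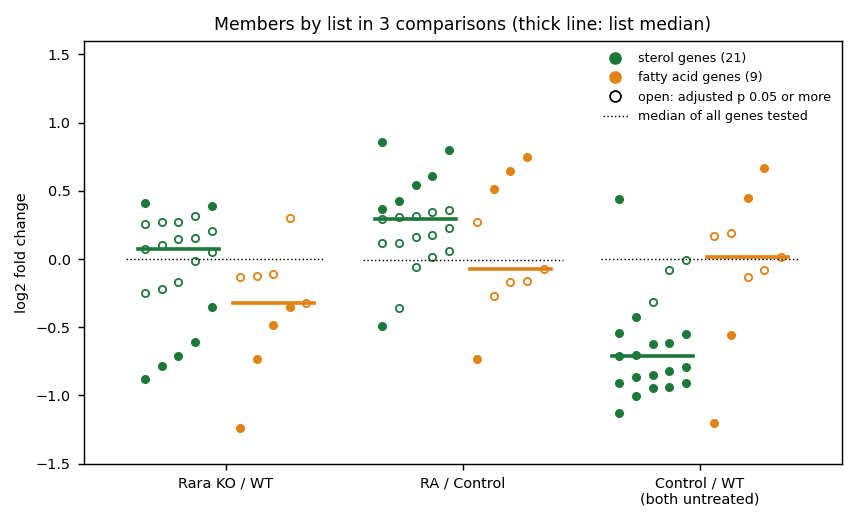
Log2 fold change (y axis) of the 21 sterol genes (green) and 9 fatty acid genes (orange) in 3 comparisons (x axis), with filled points for genes that passed the test, a thick line at the median of each list and a dotted line at the median of all genes tested. The sterol medians are 0.08 in Rara KO against WT 1 and 2, 0.29 with RA against Control and −0.71 in Control against WT 1 and 2.

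Per kilobase of exon, where genes can be compared, the members spanned a wide range. In Control 1 and 2 the mean level was 198 CPM per kb for Scd2, then 145 for Fdps, 88.9 for Msmo1 and 83.8 for Fads2. In WT 1 and 2, Fdps and Scd2 led at 291 CPM per kb each, ahead of Msmo1 at 167 and Hmgcs1 at 131 CPM per kb. At the low end in WT 1 and 2 were Acaca at 5.39, Elovl6 at 7.12 and Insig2 at 9.46 CPM per kb. Srebf2 had 43.8 CPM per kb in Rara KO and 75.2 in WT 1 and 2, and Srebf1 had 27.8 CPM per kb in Rara KO and 38.9 in WT 1 and 2.

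A further 20 genes of sterol and lipid synthesis, not members, were examined as a list, of which 19 were tested. In Rara KO, 2 rose and 2 fell (10.5% each, against 13.6% and 13.3% of all genes). With RA, 5 rose (26.3%, against 15.2%) and 2 fell (10.5%, against 19.3%). Tmem97, a SREBP target of the endoplasmic reticulum, had 109 and 87.0 CPM in Rara KO 1 and 2, against 70.9 and 61.1 CPM in WT 1 and 2 (log2 0.57 ± 0.14, edgeR adjusted p = 0.0198). With RA it had 79.1 and 76.0 CPM, against 52.6 and 45.5 CPM in Control (log2 0.66 ± 0.14, edgeR adjusted p = 0.00738). Acss2, which makes acetyl-CoA from acetate, likewise rose in both, by 0.74 ± 0.22 in Rara KO (edgeR adjusted p = 0.0394) and 1.02 ± 0.22 with RA (edgeR adjusted p = 0.00987) on the log2 scale. Mlxipl, which encodes the carbohydrate-responsive factor ChREBP, had only 1.32 and 1.15 CPM in RA 1 and 2, against 0.138 and 0.0761 CPM in Control, and was higher with RA (edgeR adjusted p = 0.00491).

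Among 9 LXR receptors and targets, 2 rose (22.2%, against 13.6% of all genes) and 1 fell (11.1%, against 13.3%) in Rara KO. With RA, 3 rose (33.3%, against 15.2%) and 1 fell (11.1%, against 19.3%). Rxra, the partner that LXR and RARα share, had 140 and 124 CPM in Rara KO 1 and 2, against 271 and 326 CPM in WT 1 and 2 (log2 −1.18 ± 0.13, edgeR adjusted p = 0.00198). With RA it had 145 and 121 CPM, against 390 and 400 CPM in Control (log2 −1.57 ± 0.13, edgeR adjusted p = 9.85e-05). These are 0.442 times the WT level and 0.337 times the Control level. Smpdl3a, an LXR target encoding a phosphodiesterase, rose in both, by 1.29 ± 0.20 in Rara KO (edgeR adjusted p = 0.00492) and 1.48 ± 0.21 with RA (edgeR adjusted p = 0.00117). Lpcat3, an LXR target that puts polyunsaturated fatty acids into phospholipids, rose with RA (log2 0.83 ± 0.12, edgeR adjusted p = 0.00176). So did Apoe, the apolipoprotein, at 497 and 785 CPM in RA 1 and 2, against 41.9 and 107 CPM in Control (log2 3.10 ± 0.65, edgeR adjusted p = 0.00779). The LXR genes themselves, Nr1h2 and Nr1h3, were called in neither comparison.

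The cell populations also differed, and the values are given because lipid synthesis varies between cell types and with growth. The 6 LC markers summed to 1406 to 1769 CPM in Rara KO and 2495 to 2669 CPM in WT 1 and 2. In Rara KO, 4 were called lower (66.7%, against 13.3% of all genes) and 2 fold changes were positive. With RA they summed to 651 to 833 CPM, against 2617 to 2685 CPM in Control. There 5 were called lower (83.3%, against 19.3%) and 1 fold change was positive. The 6 dendritic cell markers summed to 24030 to 29890 CPM in Rara KO libraries and 37177 to 41700 CPM in WT 1 and 2. They summed to 2280 to 3087 CPM with RA and 28493 to 30694 CPM in Control, and all 6 fell with RA (against 19.3% of all genes). In Rara KO, 2 of the 6 were called lower (33.3%, against 13.3% of all genes) and none higher. There 5 fold changes were negative and 1 was positive. The 10 macrophage and monocyte markers summed to 23588 to 30452 CPM in Rara KO and 13222 to 17495 CPM in WT 1 and 2, and to 21500 to 25498 CPM with RA and 9853 to 12560 CPM in Control, mostly Lyz2. Of the 10 in each comparison, 2 rose and 2 fell (20% each). Of all genes, 13.6% rose and 13.3% fell in Rara KO, and 15.2% rose and 19.3% fell with RA. The 10 proliferation markers summed to 1492 to 1897 CPM in Rara KO and 1086 to 1404 CPM in WT 1 and 2, with 3 called higher (30%, against 13.6% of all genes). With RA they summed to 2302 to 2422 CPM, against 1455 to 1740 CPM in Control, with 5 called higher (50%, against 15.2%). None of the 10 was lower at an unadjusted p under 0.05 in either comparison in edgeR.

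Of the stroma and adipocyte list, Lpl made up nearly the whole sum, at 1519 to 2614 CPM in Rara KO against 512 to 716 CPM in WT 1 and 2, and 1526 to 1529 CPM with RA against 339 to 496 CPM in Control. The defining adipocyte gene Adipoq was at 0 in Rara KO and WT libraries and at most 0.0380 CPM elsewhere, and Plin1 at most 0.360 CPM. The 9 tested neutrophil and granulocyte precursor markers summed to 736 to 2718 CPM in Rara KO and 569 to 2562 CPM in WT 1 and 2, and to 176 to 217 CPM with RA and 852 to 1192 CPM in Control. Mast cell, basophil and eosinophil genes summed to 181 to 303 CPM in Rara KO and 47.8 to 67.9 CPM in WT 1 and 2, and to 74.4 to 88.5 CPM with RA and 5.47 to 13.4 CPM in Control, led by Ear2. Lymphocyte markers summed to at most 8.12 CPM and erythroid markers to at most 1.19 CPM in any library. The part of these differences in the changes of the lipid genes was not tested.

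**Figure D4:**
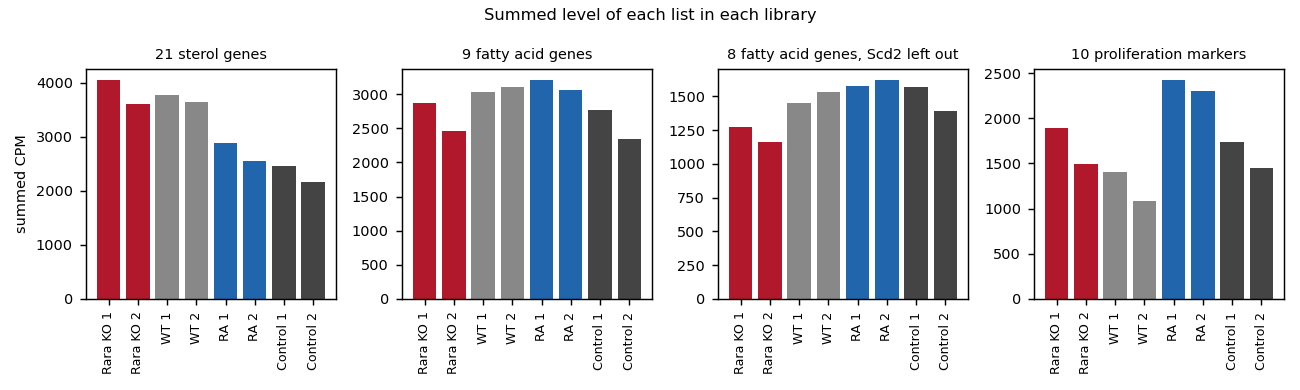
Summed CPM (y axis, from 0) in each of the 8 libraries (x axis, bars) for the 21 sterol genes, the 9 fatty acid genes, the 8 fatty acid genes other than Scd2 and the 10 proliferation markers. Sterol sums are 3605 CPM or more in Rara KO and WT 1 and 2 and 2893 CPM or less in RA and Control libraries, while the proliferation sums are highest with RA.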

How the data were processed

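Poly(A) RNA of CD11c+ cells was sequenced as read pairs. The authors aligned the pairs to mm10 with STAR and used featureCounts to assign those mapped to 1 place to RefSeq genes by strand, and the deposited counts are raw and whole. Their versions: not given in the sources used here. A separate deposited table holds the authors' own fold changes and p-values, which were not used. Libraries were grouped by column name. The 2 Control columns are WT libraries, and no name says which is WT 3 and which is WT 4.

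Counts were analysed in R 4.3.3 with edgeR 4.0.16 (TMM, glmQLFit, glmQLFTest) on 4 groups of 2 libraries, which leaves 4 residual degrees of freedom, over the 12424 genes that reached 0.5 CPM in 2 libraries or more. Each treatment was set against the controls of its own pair of column names, and a further contrast gave the difference of the effects. Adjusted p values under 0.05 were called. Each standard error was derived as the size of the log2 fold change over the root of its F statistic. CPM use TMM library sizes, and depth limits only genes near 0.5 CPM. The scripts were tested on simulated data. Exonic lengths are those of the count table, and transcript features came from GENCODE for 11526 genes.

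Library values were given for up to 4 genes per role with the smallest p in either comparison and for all 5 regulators. Genes outside the 32 were named from lists in the same way. The members, lists and tests were chosen with earlier results of these data known. Alternatives were DESeq2 1.42.0, other scalings and filters, the 4 WT libraries pooled, fits of the compared libraries alone, a replicate block, length trends, and each library left out.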

Additional observations from a re-analysis of the deposited data

Results flagged for a closer look

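In 6 genes the effect of RA and the effect of Rara KO differed by a test of the difference itself (edgeR's quasi-likelihood test, adjusted over all genes). On the log2 scale the RA effect minus the Rara KO effect was 0.823 for Idi1, 0.827 for Stard4, 0.967 for Fads2 and 0.647 for Nsdhl, all of which fell in Rara KO and did not pass with RA. It was 0.811 for Dhcr7 and 0.769 for Acly, both of which rose with RA and did not pass in Rara KO. All 6 differences were positive, and all 6 calls were lost without Control 1 or Control 2. The effects come from 2 sets of WT controls that themselves differ in most sterol genes. With the 4 WT libraries pooled as controls of both effects, the controls cancel and RA libraries are set against Rara KO libraries directly. That value holds any difference between the 2 sets of libraries, so it cannot check these 6 results. It was called for Idi1, Stard4, Fads2 and Acly. For Nsdhl and Dhcr7 it was −0.0566 and −0.0518 (edgeR adjusted p = 0.885 and 0.913).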

How the results depend on the processing

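With 2 libraries a group and changes mostly under 2-fold, calls near the threshold were fragile. DESeq2, RLE scaling and no filter kept all 53 member calls. Genes called in Rara KO were 2187 with the compared libraries alone and 2060 with coding length, untranslated length and GC trends removed, sterol genes 4 with the compared libraries alone, and fatty acid genes 2 with the length trend removed, with or without the block, and 1 with coding length, untranslated length and GC trends removed. With the 4 WT libraries pooled, RA left 1 sterol and 2 fatty acid genes called. The difference of effects was called for 1464 genes (5 fatty acid genes) by DESeq2. With pooled WT, where it becomes RA against Rara KO directly, 3588 (6) were called. Control against WT 1 and 2 gave 1150 genes without the length trend, 1517 with the block as well and 888 without coding length, untranslated length and GC trends, with 2 fatty acid genes each.

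Leaving out 1 library gave 981 to 3174 genes, 3 to 6 sterol and 2 to 4 fatty acid genes in Rara KO, the fewest without WT 2. It gave 2155 to 4689, 4 to 8 and 2 to 4 with RA, 198 to 634, 0 to 3 and 0 to 2 for the difference of effects, and 140 to 3009, 0 to 18 and 0 to 4 in Control against WT 1 and 2, the fewest genes without Control 2.

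Direction turned for a few uncalled or weak values. In Rara KO, Insig2 was −0.0281 with total counts and −0.0457 without coding length, untranslated length and GC trends, and Insig1 ran from −0.0295 (without Rara KO 1) to 0.234 (without Rara KO 2). With RA, Hmgcs1 was −0.180, Fdft1 −0.125 and Srebf1 0.00985 against pooled WT, and Srebf1 was 0.0888 without coding length, untranslated length and GC trends. Leaving out 1 library, Srebf1 ran from −0.165 (without Control 2) to 0.0169 (without Control 1) and Insig2 from −0.167 (without RA 1) to 0.0711 (without RA 2). With pooled WT, the values of RA against Rara KO for Nsdhl (−0.0566) and Dhcr7 (−0.0518) were negative. Fasn in Control against WT 1 and 2 turned (−0.0458) without coding length, untranslated length and GC trends. The cause was not tested.

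A replicate block on the shared numbers kept all 53 member calls. Deviations of same-numbered Rara KO and WT libraries correlated at 0.283 over 12424 genes. Those of RA correlated with WT at −0.0124 and with Rara KO at −0.0106. No such value was taken for RA with Control, and the block gave the Control libraries no number. The main tests treat all libraries as unpaired. Whether same-numbered libraries of Rara KO and WT, or of RA and Control, were made together cannot be told from these values.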
